A study of Mus musculus with 6 samples.

Results

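The Id family (inhibitors of DNA binding) comprises Id1, Id2, Id3 and Id4. Its members were taken as the gene rows carrying those symbols, 4 of the 46517 genes listed for each library, and all 4 passed the filter on low counts that left 19640 genes for testing. RNA-seq was run on stem cells of the hair germ, sorted out of dorsal skin at postnatal day 60, 3 days after depilation, which starts a new hair cycle. All mice carried Sox9-CreER, an inducible Cre under Sox9 control, and R26-lox-stop-lox-YFP, a reporter of its activity. LEF1_TCF7dKO mice (the double knockout) were in addition Lef1fl/fl and Tcf7-/-, LEF1cKO mice were in addition Lef1fl/fl, and WT mice had neither, with 2 libraries in each of the 3 groups. Lef1 could thus be deleted only where the Cre acted, whereas the Tcf7-/- genotype is not limited to the cells with Cre. Lef1 and Tcf7 encode HMG-box factors that bind Wnt target genes together with beta-catenin. The labels do not say whether the libraries came from separate animals or pools, so the p-values cover the spread of these samples alone, and that spread may be technical.

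Id proteins have a helix-loop-helix domain but no basic region, so they cannot bind DNA themselves. They pair with E proteins, the common partners of tissue-specific basic helix-loop-helix factors, and keep them off their E-box sites. Bone morphogenetic protein (BMP) signalling switches Id genes on through Smad1, Smad5 and Smad4 in many cell types, and in the hair follicle high BMP signalling accompanies stem cell quiescence while its fall accompanies the start of hair growth.

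The 4 genes lie on separate chromosomes of the GRCm38 build. GENCODE M21 places Id1 on the forward strand at chr2:152736251-152737410, Id2 on the reverse strand at chr12:25093799-25097140, Id3 on the forward strand at chr4:136143497-136145755 and Id4 on the forward strand at chr13:48261228-48266026. Each is protein coding. The files hold 2 transcripts of Id1, 1 of Id2, 3 of Id3 and 1 of Id4. The RefSeq promoter table used here (GRCm38.p6) had Id2, Id3 and Id4. The upstream DNA of Id2 and Id4, the members with the smallest p in both knockouts against WT, is shown because both hold the palindrome GGCGCC, a sequence known to be bound by BMP Smads in Id1. The capitals mark GGCGCC and, in Id4, the reverse complement of CCAAT, the box bound by NF-Y. The Id2 stretch runs from 250 to 162 bases before the RefSeq start on the reverse strand (chr12:25096254-25096342), and the Id4 stretch from 250 to 1 bases before it on the forward strand (chr13:48260866-48261115). The Id2 stretch lies inside the GENCODE interval given above, so it is upstream of the RefSeq start used here but not of the GENCODE gene.
Id2: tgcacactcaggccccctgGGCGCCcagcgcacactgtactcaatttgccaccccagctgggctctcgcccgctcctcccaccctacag
Id4: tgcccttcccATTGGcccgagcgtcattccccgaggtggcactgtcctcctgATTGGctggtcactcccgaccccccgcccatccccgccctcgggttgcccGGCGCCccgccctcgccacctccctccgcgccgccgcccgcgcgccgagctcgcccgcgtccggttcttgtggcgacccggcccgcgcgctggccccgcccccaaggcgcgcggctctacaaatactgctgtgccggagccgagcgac

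Motif letters were searched on both strands of the 250 bases before each RefSeq start, which for Id2 lie inside its GENCODE interval. GGCGCC occurred 1 time in Id2, 231 bases before the start, 1 time in Id4, 148 bases before it, and 0 times in Id3, and 9.59% of 32851 promoters of the same length held it. GTCT, the general Smad box, occurred 1 time in Id2, 2 times in Id3 and 0 times in Id4, and 82.9% of promoters held it. The LEF/TCF core letters CTTTGA and CTTTGT occurred 0 times in all 3 windows, while 13.8% and 16.5% of promoters held them. CCAAT occurred 3 times in Id2, 0 times in Id3 and 2 times in Id4, against 33.9% of promoters with at least 1 match. The E-box letters CANNTG occurred 1 time in Id2, 196 bases before the start, and 0 times in Id3 and Id4, and 66.2% of promoters held them. The palindrome GGCGCC shares no base with the other matches in these windows. A match describes letters and not a bound site.

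The libraries held 40480694 and 42987210 expected counts in LEF1_TCF7dKO, 49656967 and 54283055 in LEF1cKO, and 52935357 and 63220022 in WT. Both deleted genes kept reads, and the gene totals do not show from which exons. Lef1 stood at 9.22 and 9.42 TPM (a level per transcript length, scaled to the library) in LEF1_TCF7dKO, 13.5 and 8.37 TPM in LEF1cKO, and 21.4 and 20.4 TPM in WT, with an adjusted p of 0.0122 in LEF1_TCF7dKO and 0.282 in LEF1cKO against WT. Tcf7 stood at 13.7 and 18.0 TPM in LEF1_TCF7dKO, against 29.3 and 27.8 TPM in LEF1cKO and 26.9 and 36.0 TPM in WT (adjusted p = 0.00641 in LEF1_TCF7dKO against WT). The 2 LEF1cKO libraries differed: Xist, the RNA of the inactive X chromosome, was 0.66 TPM in replicate 1 and 380 TPM in replicate 2, although the labels give mixed sex for every sample, and it was 309 to 370 TPM in the libraries of the other 2 groups. The Id gene tests and gene-list counts that compare LEF1cKO are therefore given with and without its replicate 1, and the family total and ratios are given by library.

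Markers of other cells moved with genotype in this sort. Of all genes tested in LEF1_TCF7dKO against WT, 18% were higher and 19.6% lower. In that comparison, 11 of 12 interfollicular epidermis markers rose, with summed levels of 15146 and 14393 TPM against 2023 and 1666 TPM. Fibroblast and dermal papilla markers rose in 10 of 13 cases (2520 and 1978 TPM in LEF1_TCF7dKO against 491 and 261 TPM in WT), and immune and Langerhans markers in 11 of 14 (1264 and 1187 TPM against 179 and 70.7 TPM). Hair germ markers fell in 10 of the 11 tested and rose in 1. Their sums were 398 and 609 TPM in LEF1_TCF7dKO against 994 and 1077 TPM in WT. The falls include Lef1, which was deleted by design, and Msx2, which is counted again below among BMP-responsive factors. Of this list, Dkk4 was listed at 0 TPM in 5 of 6 libraries. Bulge markers, of the neighbouring stem cells, rose in 4 of the 10 tested (Cd34, Krt15, Nfatc1 and Col17a1) and fell in 3 (Sox9, Tcf7l1 and Lhx2). Sox9 and Lhx2 are also in the hair germ list. The bulge sums were 2784 and 4134 TPM in LEF1_TCF7dKO against 1746 and 1820 TPM in WT. Krt15 alone made up 1438 and 2310 TPM of the former and 760 and 745 TPM of the latter. Of 10 tested melanocyte, Schwann and Merkel markers 3 rose (368 and 565 TPM against 629 and 433 TPM), and of 8 sebaceous markers 1 rose (2761 and 1249 TPM against 930 and 783 TPM). All 14 cell cycle markers fell, with sums of 1188 and 1217 TPM in LEF1_TCF7dKO against 2897 and 2874 TPM in WT. Leaving out 1 library gave 9 to 12 epidermal, 3 to 10 fibroblast and 8 to 11 immune rises, 2 to 10 hair germ falls and 13 to 14 cell cycle falls. The 3 fibroblast rises came without LEF1_TCF7dKO replicate 1, and the hair germ falls were 5, 2 and 4 without WT replicate 1, WT replicate 2 and LEF1_TCF7dKO replicate 1. Bulge rises were then 1 to 4 and falls 1 to 3, melanocyte, Schwann and Merkel rises 1 to 3, and sebaceous rises 0 to 4. The lowest counts of these came without WT replicate 2, and for the melanocyte and sebaceous lists also without WT replicate 1 or LEF1_TCF7dKO replicate 1. In LEF1cKO against WT, 2 epidermal markers rose and 0 members of these other lists were called, or 1 hair germ fall and 1 bulge rise without LEF1cKO replicate 1. The LEF1cKO sums were 3690 and 3974 TPM for epidermis, 557 and 1058 TPM for fibroblasts, 277 and 464 TPM for immune cells, 1194 and 1053 TPM for hair germ, 1750 and 2637 TPM for bulge and 2995 and 2429 TPM for the cell cycle. Of all genes tested in LEF1cKO against WT, 0.224% were higher and 0.377% lower. The part of these marker shifts in the Id results was not tested. The sort used Sca-1, CD34 and P-cadherin, so Ly6a, Cd34 and Cdh3 in these lists are genes of the gate.

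In WT hair germ cells Id3 and Id1 were abundant and Id4 and Id2 were several-fold lower. Id3 measured 234 and 207 TPM, ranking 599 and 688 among all genes, and averaged 220 ± 19.0 TPM (SD, n = 2, as in all averages here). Id1 measured 199 and 173 TPM and averaged 186 ± 18.8 TPM. Id4 measured 65.2 and 51.7 TPM and averaged 58.5 ± 9.58 TPM, and Id2 measured 50.3 and 50.9 TPM and averaged 50.6 ± 0.41 TPM. Id3 lay above Id1 in both libraries without overlap between their ranges. The gap between Id4 and Id2 was smaller than the SD of Id4, so their order was not resolved.

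**Figure D1:**
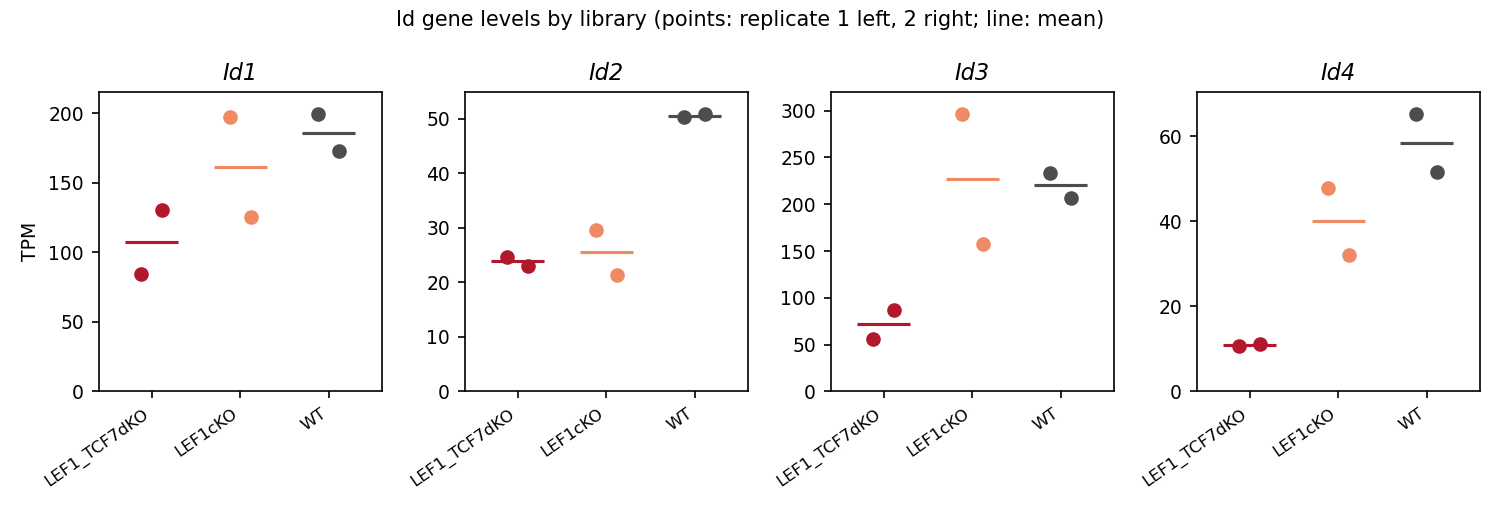
Level of each Id gene (TPM, points are libraries, the line is the group mean) in LEF1_TCF7dKO, LEF1cKO and WT. Id4 in LEF1_TCF7dKO, at 10.8 and 11.1 TPM, is the lowest level of any member, and the LEF1cKO points are farthest apart for Id3, at 296 and 157 TPM.

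Id4, Id3 and Id2 fell in the double knockout, in that order of fold change. That count is 3 of 4 at an adjusted p under 0.05 (edgeR quasi-likelihood test, Benjamini-Hochberg over 19640 genes), where 37.6% of all genes tested were called and 19.6% were lower by the same rule. Id1, the fourth member, was also lower in both libraries but missed the threshold. No member was higher, and the median log2 fold change over all genes tested was 0.01. In bulk samples such as these, fewer cells of a type and less RNA per cell cannot be told apart.

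Id4, best known from neural and germline stem cells, had the largest fold change of the 4. It measured 10.8 and 11.1 TPM in LEF1_TCF7dKO, against 65.2 and 51.7 TPM in WT. The groups did not overlap, and the double knockout libraries lay close together. The log2 fold change was -2.55 ± 0.25 (SE; 95% interval -3.16 to -1.94; adjusted p = 0.00331), a 5.87-fold lower level. Only 401 of the 19640 genes tested had a lower log2 fold change. The call was kept when any of the 6 libraries was left out, with adjusted p up to 0.0322.

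Id3 measured 55.9 and 87.1 TPM in LEF1_TCF7dKO, against 234 and 207 TPM in WT. Again the groups did not overlap, although the double knockout libraries differed from each other more than for Id4. The log2 fold change was -1.78 ± 0.38 (95% interval -2.70 to -0.87; adjusted p = 0.0147), 3.45-fold lower. Each of 3 libraries decided this call: the adjusted p was 0.0616 without WT replicate 1, 0.0579 without WT replicate 2 and 0.0960 without LEF1_TCF7dKO replicate 1, with log2 fold changes of -2.16 to -1.48 over the 6 omissions.

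Id2 measured 24.7 and 23.0 TPM in LEF1_TCF7dKO, against 50.3 and 50.9 TPM in WT. Replicates lay close together in both groups and the groups were well apart. The log2 fold change was -1.23 ± 0.20 (95% interval -1.70 to -0.75; adjusted p = 0.00712), 2.34-fold lower. Without LEF1_TCF7dKO replicate 1 the log2 fold change was -1.23 and the adjusted p was 0.0509.

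Id1, a classic BMP target gene, measured 84.6 and 131 TPM in LEF1_TCF7dKO, against 199 and 173 TPM in WT. Both double knockout libraries lay below both WT libraries. The log2 fold change was -0.91 ± 0.30 (95% interval -1.65 to -0.17), and the adjusted p of 0.0587 did not pass the threshold. It passed with DESeq2 (adjusted p = 0.0150), which called all 4 members lower where it called 21.5% of all genes lower, and in edgeR with no low-count filter (0.0162), with the 2 groups fitted alone (0.0293), and without LEF1cKO replicate 1 (0.0367) or replicate 2 (0.0302). Without LEF1_TCF7dKO replicate 2 its log2 fold change was -1.30, and without replicate 1 it was -0.59.

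**Figure D2:**
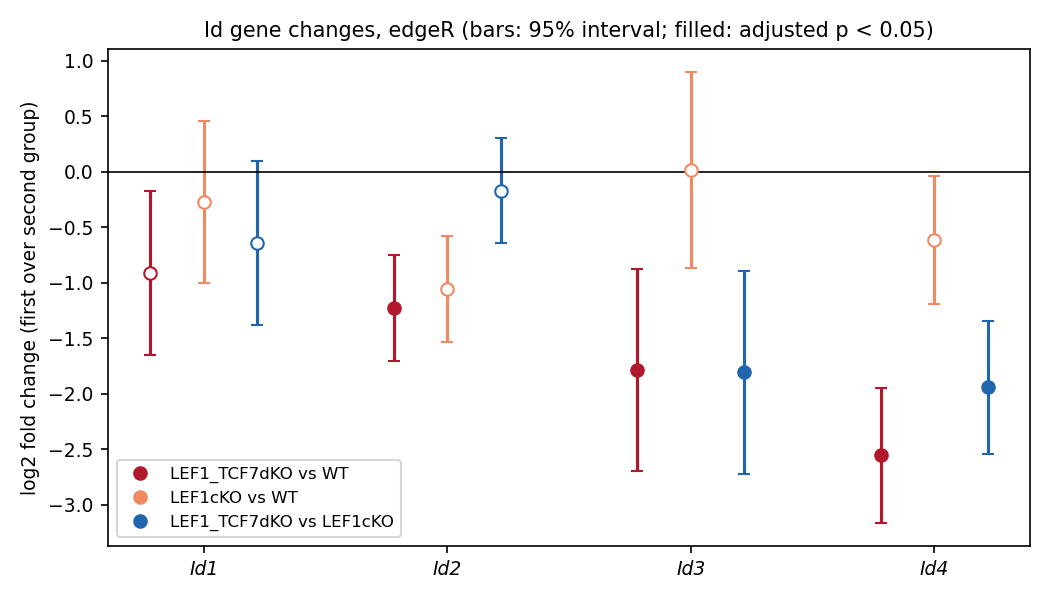
Log2 fold change of each Id gene in 3 comparisons (points with 95% intervals, filled where the adjusted p was under 0.05; the horizontal line at 0 marks no change). Id4 and Id3 lie far below 0 in both comparisons of LEF1_TCF7dKO, while Id2 lies below 0 in both knockouts against WT and near 0 between the knockouts.

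The LEF1cKO libraries were set against WT by the same test. Of the 4 members, 0 passed the threshold in LEF1cKO against WT by edgeR, where 0.601% of all genes tested were called, 0.377% lower and 0.224% higher. At an unadjusted p under 0.05 there were 2, Id2 and Id4, and DESeq2 called 1, Id2, where it called 1.33% of all genes lower. Id2 measured 29.7 and 21.3 TPM in LEF1cKO, against 50.3 and 50.9 TPM in WT. Both LEF1cKO libraries lay well below both WT libraries. Its log2 fold change was -1.06 ± 0.20 (95% interval -1.53 to -0.58; 2.08-fold lower; adjusted p = 0.122), and 655 of 19640 genes had a lower one. The adjusted p was 0.000601 with DESeq2, 0.0140 with no low-count filter and 0.0244 without LEF1cKO replicate 1, where the log2 fold change was -1.37.

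Id4 measured 47.9 and 32.1 TPM in LEF1cKO, against 65.2 and 51.7 TPM in WT. The ranges did not overlap, though LEF1cKO replicate 1 came close to WT replicate 2. The log2 fold change was -0.61 ± 0.24 (95% interval -1.19 to -0.04; adjusted p = 0.480) and -0.99 without LEF1cKO replicate 1. Id1 measured 197 and 125 TPM in LEF1cKO, against 199 and 173 TPM in WT, so the groups overlapped, and Id3 measured 296 and 157 TPM, against 234 and 207 TPM, on either side of WT. Their log2 fold changes were -0.27 ± 0.30 (adjusted p = 0.869) and 0.02 ± 0.36 (adjusted p = 0.998), with 95% intervals of -1.004 to 0.46 and -0.86 to 0.90. Without LEF1cKO replicate 1, those values were -0.68 and -0.60, and without replicate 2 they were 0.05 and 0.45.

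The double knockout was then set against LEF1cKO directly, which tests the difference between the knockouts; it shares the LEF1cKO libraries with the comparison above. Here 2 of 4 members fell, Id4 and Id3, where 25.2% of all genes tested were called and 14.1% were lower. Id4 was 10.8 and 11.1 TPM in LEF1_TCF7dKO against 47.9 and 32.1 TPM in LEF1cKO, without overlap, a log2 fold change of -1.94 ± 0.25 (adjusted p = 0.0111; 3.83-fold lower). Id3 was 55.9 and 87.1 TPM against 296 and 157 TPM, also without overlap, a log2 fold change of -1.80 ± 0.38 (adjusted p = 0.0231; 3.49-fold lower). These calls rest on few libraries: without LEF1_TCF7dKO replicate 1 the adjusted p was 0.0780 for Id4 and 0.131 for Id3, and only 1 gene of all those tested was called. For Id3 it was 0.0636 without LEF1cKO replicate 1, where the log2 fold change was -1.18, and 0.0533 without LEF1_TCF7dKO replicate 2.

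Id2 did not pass between the knockouts, with 24.7 and 23.0 TPM in LEF1_TCF7dKO lying within the LEF1cKO range of 29.7 and 21.3 TPM. Its log2 fold change was -0.17 ± 0.20 (adjusted p = 0.552), and the 95% interval of -0.64 to 0.31 leaves room for a difference in either direction. Without LEF1cKO replicate 1 the value was 0.14, and without replicate 2 it was -0.44 (adjusted p = 0.0354). Id1 had 84.6 and 131 TPM in LEF1_TCF7dKO against 197 and 125 TPM in LEF1cKO, which overlapped (log2 fold change -0.64 ± 0.30; adjusted p = 0.164). Without LEF1cKO replicate 1 that log2 fold change was -0.23, and that of Id4 was -1.56.

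The family was also described by its total and make-up. Summed over the 4 genes, the level was 176 and 252 TPM in LEF1_TCF7dKO, 571 and 336 TPM in LEF1cKO, and 549 and 482 TPM in WT. The mean sum was 214 ± 53.8 TPM in LEF1_TCF7dKO, which is 0.415 of the WT mean of 516 ± 46.9 TPM, and 454 ± 166 TPM in LEF1cKO, which is 0.880 of it. That LEF1cKO mean joins unlike libraries: replicate 1, at 571 TPM, lay above both WT libraries, and replicate 2, at 336 TPM, lay below both. In both LEF1_TCF7dKO libraries the order of levels was Id1, Id3, Id2 and Id4, and in all LEF1cKO and WT libraries it was Id3, Id1, Id4 and Id2. In WT replicate 2, however, Id4 and Id2 nearly tied, at 51.7 and 50.9 TPM, so their order in WT was not resolved. The places of Id4 and Id2 in that order, and the share of Id4, rest on the deposited transcript length of Id4, which is shorter than in GENCODE M21. The double knockout ranges of Id1 and Id3 overlapped, but within each library Id1 was 1.513 and 1.503 times Id3, against 0.666 and 0.796 times in LEF1cKO and 0.853 and 0.835 times in WT. Id4 was 0.436 and 0.485 times Id2 in LEF1_TCF7dKO, 1.61 and 1.51 times in LEF1cKO, and 1.30 and 1.02 times in WT.

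Both ratios separated the double knockout from either other group without overlap. The log2 ratio of Id1 to Id3 was higher by 0.84 in LEF1_TCF7dKO than in WT and by 1.05 than in LEF1cKO, and the log2 difference in the ratio of Id4 to Id2 was -1.32 against WT and -1.76 against LEF1cKO. The two-sided exact permutation p was 0.333 for each of these 4 comparisons, the smallest that 2 libraries against 2 allow, so no difference in make-up was shown by a test. The ratios were chosen after the values were seen.

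**Figure D3:**
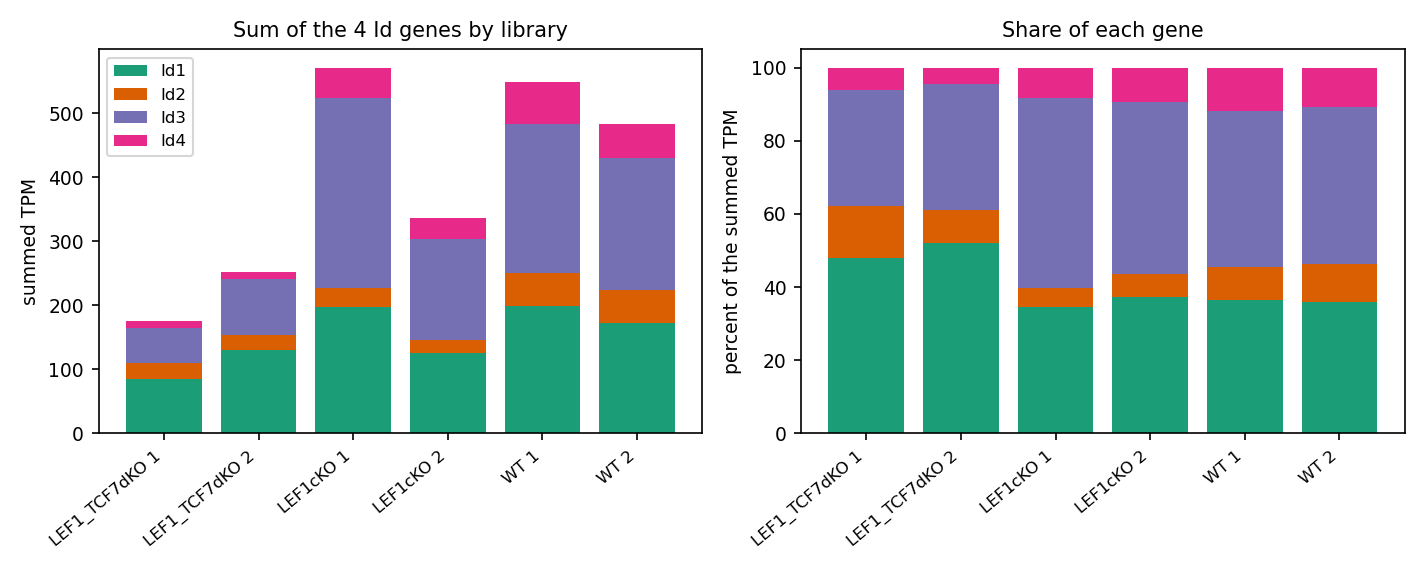
Share of the summed Id level (percent of TPM) taken by each gene in each library, ordered LEF1_TCF7dKO, LEF1cKO and WT. Id1 takes 48.1% and 51.9% in LEF1_TCF7dKO, against 34.5% to 37.3% in the other 4 libraries, while Id4 takes 6.12% and 4.42% there and 8.39% to 11.9% elsewhere.

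The members also differed within groups. In 3 of 3 groups the library with more Id1 also had more Id3 and Id4, a pattern noticed in the data. For Id4 in LEF1_TCF7dKO the gap was slight, at 10.8 and 11.1 TPM. How many other genes share this order was not counted. Over the 6 libraries, Pearson's r of log2 CPM was 0.95 for Id3 with Id4, 0.94 for Id1 with Id3 and 0.88 for Id1 with Id4, and it was 0.77, 0.74 and 0.63 for Id2 with Id4, Id1 and Id3. These points share genotype groups and are given as a description, since many other genes followed each member more closely: among 10470 genes, Id4 had rank 1596 by r with Id3, Id3 rank 309 with Id1, and Id4 rank 1367 with Id1. The gene whose pattern lay nearest to that of Id4 among 10470 genes was Nudt21 (r = 0.9993), followed by the mitotic genes Ube2c (0.9986) and Cenpq (0.9986). Ube2c had 79.4 and 76.4 TPM in LEF1_TCF7dKO, 203 and 161 TPM in LEF1cKO, and 233 and 203 TPM in WT. Nearest to Id2 were the heat shock gene Hspa1a (r = 0.9925), Lef1 (0.9844) and Mb21d2 (0.9834). Lef1 was targeted by design in both knockouts, so a gene low in both follows it over these libraries. Hspa1a had 202 and 143 TPM in LEF1_TCF7dKO, 244 and 137 TPM in LEF1cKO, and 698 and 836 TPM in WT, so like Id2 and Lef1 it was low in both knockouts. Among the nearest to Id1 were Rps4x (0.9986) and Vrk2 (0.9953), and nearest to Id3 were Slc4a1ap (0.9991), Nup62 (0.9986) and Ube2r2 (0.9985). A high r does not mean a change of like size. Rps4x had 2305 and 2551 TPM in LEF1_TCF7dKO against 2796 and 2646 TPM in WT. Slc4a1ap had 22.07 and 25.65 TPM in LEF1_TCF7dKO against 27.28 and 27.41 TPM in WT.

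The Id4 locus has a second transcribed gene that overlaps it. A330033J07Rik is annotated antisense to Id4 at chr13:48044231-48262623 on the reverse strand. It had 0.34 and 0.49 TPM in LEF1_TCF7dKO, 1.32 and 0.62 TPM in LEF1cKO, and 2.89 and 2.2 TPM in WT. It fell with Id4 in the double knockout (log2 fold change -2.75 ± 0.48; adjusted p = 0.00879, or 0.0636 without LEF1_TCF7dKO replicate 1). The sources used here do not state whether counting used the strand, so reads of the overlap cannot be told apart, and the counts of Id4 are fractional where those of Id1, Id2 and Id3 are whole numbers. Adding the counts of the antisense gene to those of Id4 left its 3 comparisons on the same side of the threshold. The antisense gene had 260 and 232 counts in WT beside 3496 and 3264 of Id4, and it fell with Id4. So the sum could hardly move the result, and it does not show how reads of the overlap were assigned. The Id4 transcript has 1660 bases in the files and 3849 bases in GENCODE M21 under the same identifier. For Id1, the deposited mean length corresponds to a share of 8.24% and 9.0% in LEF1_TCF7dKO, 3.25% and 8.93% in LEF1cKO, and 5.68% and 5.08% in WT for its longer transcript (1160 against 934 bases).

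The genes around the Id proteins were followed through 83 symbols in 11 lists, of which 73 could be tested. In LEF1_TCF7dKO against WT, 21 rose and 20 fell, with a median log2 fold change of 0.09, where 18% of all genes tested were higher and 19.6% lower. Of these 41 calls, those of Tcf3, Bhlhe41, Bmp2, Bmp3, Chrd, Nbl1, Smad6, Msx1, Msx2, Dlx2, Dlx3, Cdkn1a and Usp1 held when any 1 library was left out. The totals were 11 and 8 without WT replicate 1, 9 and 9 without WT replicate 2, 10 and 9 without LEF1_TCF7dKO replicate 1, and 15 and 13 without its replicate 2 (rises first). In LEF1cKO against WT, 0 of 73 were called by edgeR, 5 had an unadjusted p under 0.05, and DESeq2 called 2, Bmp3 and Bmp4, where it called 3.19% of all genes. Without LEF1cKO replicate 1, edgeR called Bambi lower and Nfatc1 higher. In LEF1_TCF7dKO against LEF1cKO, 15 rose, where 11.2% of all genes tested were higher, and 15 fell, where 14.1% were lower. These were 0 and 0 without LEF1_TCF7dKO replicate 1, 10 and 8 without its replicate 2, 6 and 7 without LEF1cKO replicate 1, and 11 and 7 without either WT library.

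Among ligands, 3 of 8 tested rose in the double knockout and 1 fell, where 18% of all genes tested were higher and 19.6% lower. The same shares stand beside the counts of the lists that follow. Bmp2 measured 15.5 and 16.0 TPM in LEF1_TCF7dKO, against 3.33 and 4.28 TPM in WT (log2 fold change 1.91; adjusted p = 0.00513). Bmp7 measured 81.9 and 99.2 TPM, against 42.5 and 55.5 TPM (0.75; adjusted p = 0.0364, lost without any 1 of these 4 libraries). Bmp3, which antagonises other BMPs, rose at 3.97 and 5.87 TPM in LEF1_TCF7dKO against 0.35 and 0.12 TPM in WT. Bmp4 gave no call, with 14.3 and 12.01 TPM in LEF1_TCF7dKO against 11.5 and 13.9 TPM in WT. The other call, Gdf6, stayed at or under 0.20 TPM in every library.

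Of 10 receptors and coreceptors, 4 rose and 2 fell. Bmpr1a, the main type I BMP receptor of the follicle, fell, with 51.0 and 46.9 TPM in LEF1_TCF7dKO against 71.1 and 67.9 TPM in WT (log2 fold change -0.59; adjusted p = 0.00761, lost without either WT library). Bmpr1b, another type I receptor, rose at a low level, with 0.50 and 0.42 TPM against 0.07 and 0.02 TPM (3.02; adjusted p = 0.0088, lost without WT replicate 2). Acvrl1 and Eng, a receptor and coreceptor best known from endothelium, rose. Eng had 19.3 and 7.98 TPM in LEF1_TCF7dKO against 3.49 and 2.86 TPM in WT, and its call was lost without either WT library or LEF1_TCF7dKO replicate 1, while that of Acvrl1 was lost without WT replicate 2. Endothelial and mural markers moved the same way. Of that list 12 of 14 rose, with sums of 292 and 146 TPM against 75.8 and 61.5 TPM, and only 1 was called without WT replicate 1, 1 without WT replicate 2 and 4 without LEF1_TCF7dKO replicate 1. Within LEF1_TCF7dKO the library with the higher endothelial sum, replicate 1, had the lower levels of Id1 and Id3. The same held in LEF1cKO, where replicate 2 had the higher sum (83.0 against 70.8 TPM). In WT the reverse held, as replicate 1 had the higher sum and the higher levels of Id1 and Id3. The part of these cells in the results was not tested.

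Among the Smads that carry the signal to Id genes, 2 of 4 fell, both by small amounts: Smad5 (log2 fold change -0.39; adjusted p = 0.0404) and the common partner Smad4 (-0.38; adjusted p = 0.0407). Both calls were lost without any 1 of the 4 libraries compared. Smad1 gave no call, at 37.1 and 36.7 TPM in LEF1_TCF7dKO against 34.3 and 36.0 TPM in WT.

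Extracellular antagonists rose in 4 of 12 cases and fell in 1. Nbl1 (DAN) measured 84.8 and 88.5 TPM in LEF1_TCF7dKO, against 34.8 and 33.2 TPM in WT (log2 fold change 1.21; adjusted p = 0.00386). Chrd, which encodes the BMP-binding protein chordin, measured 1.96 and 2.90 TPM, against 0.29 and 0.22 TPM (3.10; adjusted p = 0.00402). Chrdl1, a relative of chordin, rose, with 1.48 and 0.72 TPM against 0.16 and 0.06 TPM, and Bmper, a chordin-like BMP-binding protein gene, fell, with 0.11 and 0.08 TPM against 1.11 and 0.57 TPM. The Chrdl1 call was lost without WT replicate 2 or LEF1_TCF7dKO replicate 1, and the Bmper call without WT replicate 1 or either LEF1_TCF7dKO library. Nog, whose product noggin opposes BMP in hair growth, gave no call, with 1.57 and 1.97 TPM in LEF1_TCF7dKO against 0.97 and 1.04 TPM in WT. Inside the cell, 3 of 8 inhibitors fell and 1 rose. Tob1, whose product binds BMP Smads, rose, with 78.7 and 79.7 TPM in LEF1_TCF7dKO against 41.4 and 47.7 TPM in WT (0.69; adjusted p = 0.0074, lost without WT replicate 1). Those that fell, Smad6, Smad7 and Bambi, are known feedback inhibitors of the pathway. Smad6 measured 4.81 and 4.80 TPM in LEF1_TCF7dKO, against 9.80 and 10.6 TPM in WT (-1.22; adjusted p = 0.00396). Smad7 had 9.86 and 13.2 TPM against 22.3 and 20.8 TPM (adjusted p = 0.0146), and the pseudoreceptor gene Bambi had 1.81 and 1.96 TPM against 9.29 and 8.58 TPM (adjusted p = 0.0102). Smad7 did not pass without either WT library or without LEF1_TCF7dKO replicate 1, and Bambi did not pass without either LEF1_TCF7dKO library.

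**Figure D4:**
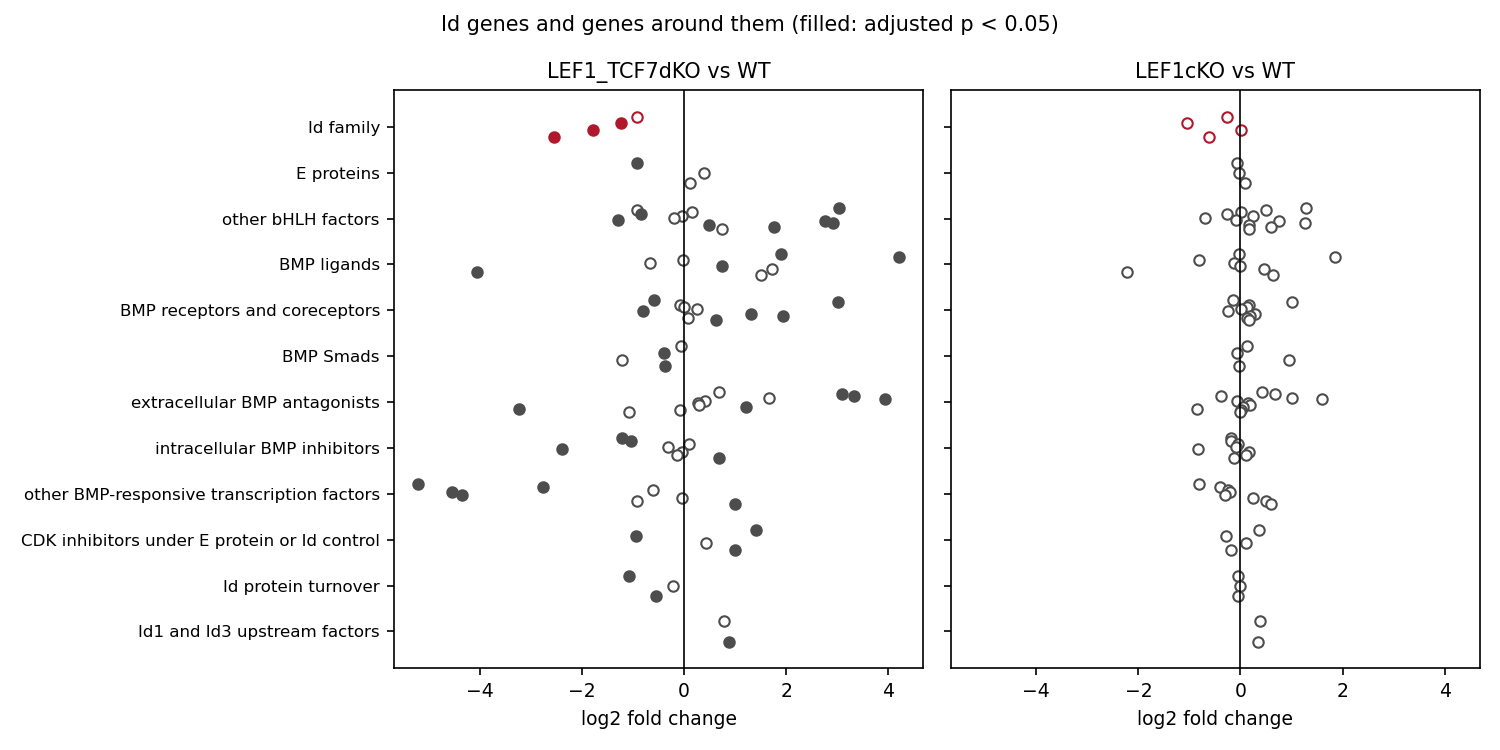
Log2 fold change of the Id genes and the tested genes of each pathway list in LEF1_TCF7dKO against WT and in LEF1cKO against WT (filled points passed an adjusted p of 0.05; a gene at 0 TPM in a whole group is left out). The lowest points of the first panel are the BMP-responsive factors Msx1, Dlx2 and Dlx3, and the second panel has no filled point.

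Of 8 other BMP-responsive transcription factors, 4 fell and 1 rose, with a list median of -1.84. Dlx3, a homeobox factor of the hair matrix, measured 5.52 and 6.61 TPM in LEF1_TCF7dKO, against 123 and 102 TPM in WT (log2 fold change -4.34; adjusted p = 0.00265). Msx1 measured 1.11 and 1.17 TPM, against 45.5 and 30.8 TPM (-5.20; adjusted p = 0.0044), and Msx2 measured 7.26 and 11.4 TPM, against 60.4 and 57.4 TPM (-2.76; adjusted p = 0.0058). Dlx2 measured 2.57 and 4.25 TPM, against 83.3 and 67.3 TPM (-4.55; adjusted p = 0.0045). As for Id3, their LEF1cKO replicates differed: Dlx3 had 124 and 64.7 TPM there, Msx1 34.3 and 10.9 TPM and Msx2 61.8 and 30.5 TPM, with the higher value in replicate 1 each time. Nfatc1, a quiescence factor of bulge stem cells, rose, with 38.6 and 37.1 TPM in LEF1_TCF7dKO against 16.9 and 17.9 TPM in WT (0.99; adjusted p = 0.0427, lost without any 1 of these 4 libraries).

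Of the E proteins, the direct partners of the Id proteins, 1 of 3 changed, where 37.6% of all genes tested were called. Tcf3 (the E2A gene, not the LEF/TCF factor Tcf7l1) measured 80.3 and 89.7 TPM in LEF1_TCF7dKO, against 140 and 152 TPM in WT (log2 fold change -0.92; adjusted p = 0.0052). Tcf4 (E2-2) had 42.5 and 33.0 TPM against 24.8 and 29.1 TPM (0.39; adjusted p = 0.0509), and Tcf12 (HEB) had 108 and 116 TPM against 87.0 and 86.1 TPM (0.13; adjusted p = 0.462). Among 13 other basic helix-loop-helix and Hes family factors, 5 rose and 3 fell. Bhlhe41, a transcriptional repressor of the circadian clock, measured 11.8 and 11.1 TPM in LEF1_TCF7dKO, against 3.26 and 2.68 TPM in WT (1.77; adjusted p = 0.0049). Twist1 and Twist2, which are mesenchymal factors, rose at 17.3 and 11.1 TPM and at 8.53 and 5.58 TPM in LEF1_TCF7dKO, beside the rise of the fibroblast markers. Both calls were lost without LEF1_TCF7dKO replicate 1. Hes5, a Notch target, was listed at 0 in both LEF1_TCF7dKO libraries, against 0.43 and 0.44 TPM in WT.

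The remaining lists concern what Id proteins act on and what acts on them. Of 4 CDK inhibitor genes, 2 rose and 1 fell. Cdkn1a (p21), which E proteins can activate, measured 286 and 239 TPM in LEF1_TCF7dKO, against 85.2 and 90.8 TPM in WT (log2 fold change 1.42; adjusted p = 0.00229). Cdkn1b (p27) measured 43.7 and 49.3 TPM, against 82.8 and 75.9 TPM (-0.94; adjusted p = 0.018), and Cdkn2b (p15) rose, with 5.96 and 7.16 TPM against 3.27 and 2.68 TPM. These last 2 calls were lost without any 1 of the 4 libraries compared. Of 3 genes that set Id protein stability, 2 fell. Usp1, whose product removes ubiquitin from some Id proteins, measured 49.2 and 54.0 TPM in LEF1_TCF7dKO, against 99.8 and 102 TPM in WT (-1.08; adjusted p = 0.00399). Fzr1 encodes the Cdh1 activator of the anaphase-promoting complex, which degrades some Id proteins. Fzr1 fell by 0.56 (adjusted p = 0.00945, lost without either WT library or LEF1_TCF7dKO replicate 1). Usp1 also serves DNA repair and moved beside the cell cycle markers above.

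Of 2 stress-inducible factors reported to act on Id1 or Id3, Egr1 rose, with 1287 and 1508 TPM in LEF1_TCF7dKO against 650 and 734 TPM in WT (log2 fold change 0.88; adjusted p = 0.0111, lost without either WT library). Atf3, known as a repressor of Id1 under TGF-beta, had 1447 and 1621 TPM against 737 and 882 TPM (0.78; adjusted p = 0.0505). In LEF1cKO, Egr1 had 931 and 926 TPM and Atf3 had 1329 and 898 TPM, between the double knockout and WT means, and neither passed the threshold against WT.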

How the data were processed

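The submitters' processing notes name Bowtie2 2.2.9, RSEM 1.2.30 and mm10; which annotation was used is not stated in them. Expected counts, deposited per gene, are estimates by RSEM without normalization. The deposited TPM values divide by effective length and scale to the library, per the file headers. FPKM values were deposited by the authors and not used. The deposited gene lengths served as an offset in 1 alternative.

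Rounded expected counts went into edgeR 4.0.16 (R 4.3.3): TMM factors, filterByExpr by group, the quasi-likelihood F test on all 6 libraries together (3 residual degrees of freedom) and Benjamini-Hochberg adjustment over 19640 genes at 0.05. Genes said to rise or fall passed this threshold. SE is the log2 fold change over the root of F, and 95% intervals use the t distribution. Depth was 40480694 to 63220022 counts, and Id counts ran from 416 to 10377.

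Within each list up to 4 called genes were named by smallest p; other named genes serve as context and were chosen after their values were seen. The genes most like a member were the 3 with the highest r among genes averaging at least 5 TPM; not all of them are reported here. The members, gene lists and alternatives were chosen with earlier results of these data known. Alternatives used limma 3.58.1, DESeq2 1.42.0, other scaling and filters, TPM and omitted libraries.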

Additional observations from a re-analysis of the deposited data

How the results depend on the processing

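Over 12 results for the Id genes (4 genes in 3 comparisons), 181 of 207 alternative settings kept direction and side of the threshold. All 8 lost calls came from leaving out a library, and the cause of the changes was not tested. Id4 in LEF1_TCF7dKO against WT kept its call throughout. Id1 in LEF1_TCF7dKO against WT passed at a log2 fold change of -0.91 with no filter, with DESeq2 and with the 2 groups alone. Id2 in LEF1cKO against WT passed at -1.06 with no filter and with DESeq2. Id3 in LEF1cKO against WT, 0.02 as reported, was -0.0717 with limma voom, -0.0262 on log2(TPM + 1), -0.0266 on log2(TPM + 0.1) and -0.0187 with effective length as an offset. Leaving out 1 library gave, in LEF1_TCF7dKO against WT, -1.30 to -0.59 for Id1, -1.24 to -1.21 for Id2, -2.16 to -1.48 for Id3 and -2.70 to -2.37 for Id4. In LEF1cKO against WT it gave -0.68 to 0.0468 for Id1, -1.37 to -0.80 for Id2, -0.60 to 0.45 for Id3 (-0.0528 without WT replicate 2) and -0.99 to -0.32 for Id4. In LEF1_TCF7dKO against LEF1cKO it gave -1.03 to -0.23 for Id1, -0.44 to 0.14 for Id2, -2.25 to -1.18 for Id3 and -2.25 to -1.56 for Id4. Over the omissions of 1 library, genes called over the whole table ranged from 1968 (without WT replicate 2) to 8333 in LEF1_TCF7dKO against WT (7389 as reported), with 2671 without WT replicate 1 and 2994 without LEF1_TCF7dKO replicate 1. Over the same omissions they ranged from 78 (without WT replicate 2) to 138 in LEF1cKO against WT (118 as reported), and were 422 with no filter and 627 with DESeq2. In LEF1_TCF7dKO against LEF1cKO (4952 as reported) the omissions gave 1 (without LEF1_TCF7dKO replicate 1) to 5973, with 2884, 1652, 2201 and 2124 without LEF1_TCF7dKO replicate 2, LEF1cKO replicate 1, WT replicate 1 and WT replicate 2, and they were 2585 with the 2 groups alone and 6478 with DESeq2. The 2 groups alone gave 8531 in LEF1_TCF7dKO against WT. A group left with 1 library is assumed to vary like the others.

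Libraries with the same replicate number did not deviate together: correlations of their deviations were -0.03 (LEF1_TCF7dKO with LEF1cKO), 0.06 (LEF1_TCF7dKO with WT) and -0.04 (LEF1cKO with WT). The labels do not say whether these libraries were paired, and with 2 libraries a group this check cannot settle it. With the replicate number as a block, 6435, 80 and 3635 genes were called in LEF1_TCF7dKO against WT, LEF1cKO against WT and LEF1_TCF7dKO against LEF1cKO. The block gave -0.90, -1.23, -1.76 and -2.53 for Id1 to Id4 in LEF1_TCF7dKO against WT, -0.28, -1.08, -0.0102 and -0.63 in LEF1cKO against WT, and -0.62, -0.15, -1.75 and -1.90 in LEF1_TCF7dKO against LEF1cKO, and moved no Id gene across the threshold.

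With 2 libraries a group, permutation tests could not fall under 0.333. Every Id count was at least 416, and the intervals of Id1 and Id3 were wider than those of Id2 and Id4. Each interval uses a spread estimated over all 3 groups. The LEF1cKO pair, at 296 and 157 TPM for Id3, thus also enters the interval of LEF1_TCF7dKO against WT. What sets the widths was not tested.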
